A study of Gallus gallus with 6 samples.

Results

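CD74, BF2, CD83, CD40, LY75 and ZBTB46 are chicken genes of antigen presentation and costimulation. They were chosen by gene symbol, in the array's probe table or as updated by gene identifier, and all 6 were found among the 2253 named genes that were read. They took up 27 of the 14718 spots, 9 of them from 3 cDNA clones of BF2, 6 from 2 clones of CD83 and 3 from 1 clone of each other gene. Their NCBI gene numbers are 414741 for CD74, 425389 for BF2, 420838 for CD83, 395385 for CD40, 424192 for LY75 and 419259 for ZBTB46.

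Total RNA came from macrophages obtained from chicken peripheral blood, either left unstimulated or given whole XL10 E. coli or LPS from S. typh, the lipopolysaccharide of the outer membrane of Gram-negative bacteria. The stimulus was taken away after 2 h for the later times. On 5 spotted cDNA arrays a pair of RNA samples was compared, with the RNA of channel 1 named first here. The 1 h E. coli array held E. coli 1 h with unstimulated cells, and the 1 h LPS array held unstimulated cells with LPS 1 h. The E. coli time array paired 2 h of E. coli with 4 h of it. The 4 h array set E. coli 4 h beside LPS 4 h, and the 8 h array did so for 8 h. A further array gave the brightness of LPS 2 h alone. The labels name no breed, age, number of birds or pooling.

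Macrophages take up foreign protein, cut it in lysosomes and show the peptides to T cells on major histocompatibility complex (MHC) class II molecules, whose assembly is guided by the invariant chain, CD74. Peptides from within the cell are shown on MHC class I molecules, of which BF2 is the dominantly expressed chain of the chicken. T cells also need costimulation, to which CD40 and CD83 on the presenting cell contribute, and both are known from mammals as markers of activated presenting cells. LY75, also called DEC-205, is an endocytic receptor of dendritic cells, and ZBTB46 is a transcription factor that marks conventional dendritic cells in mice and humans.

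Each comparison had 1 array, so no replicate and no test between groups was possible, and precision is limited by the number of arrays. Ratios are log2 values (base 2 assumed) centred on the array's median, and each ± is the SD over spots of a gene on 1 array, which holds technical spread only. The authors' numerator is not stated, so signs are as deposited and the direction is unsettled: were an array to run the other way, all its signs would turn together. Were channel 1 the numerator, a positive ratio would mean more signal from the RNA named first. A gene counts as past 2-fold when its ratio is at least 1 in size. In bulk RNA, fewer cells of a kind and less RNA per cell cannot be told apart.

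Of the 6 genes, 2 were past 2-fold on the 1 h E. coli array, where 16.3% of all genes were, and 2 on the 1 h LPS array against 11.2%. The E. coli time array had 1 of 6 past 2-fold against 23.1%, and the 4 h and 8 h arrays had 3 of 6 each against 29.4% and 27.9%. Of these 11 ratios 10 were negative and 1, that of CD83 on the 1 h E. coli array, was positive. The 6 genes were chosen with earlier results of these data known, so their counts cannot be read as an excess over all genes. In the same order of arrays, 1.51%, 7.37%, 8.3%, 11.7% and 12.9% of all genes were past 2-fold with a negative ratio, and 14.7%, 3.78%, 14.8%, 17.7% and 15% with a positive one. The median of the 6 ratios was -0.49 on the 1 h E. coli array, -0.28 on the 1 h LPS array, -0.29 on the E. coli time array, -1.09 at 4 h and -0.74 at 8 h, while the medians over all genes lay between -0.01 and 0.05.

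**Figure D1:**
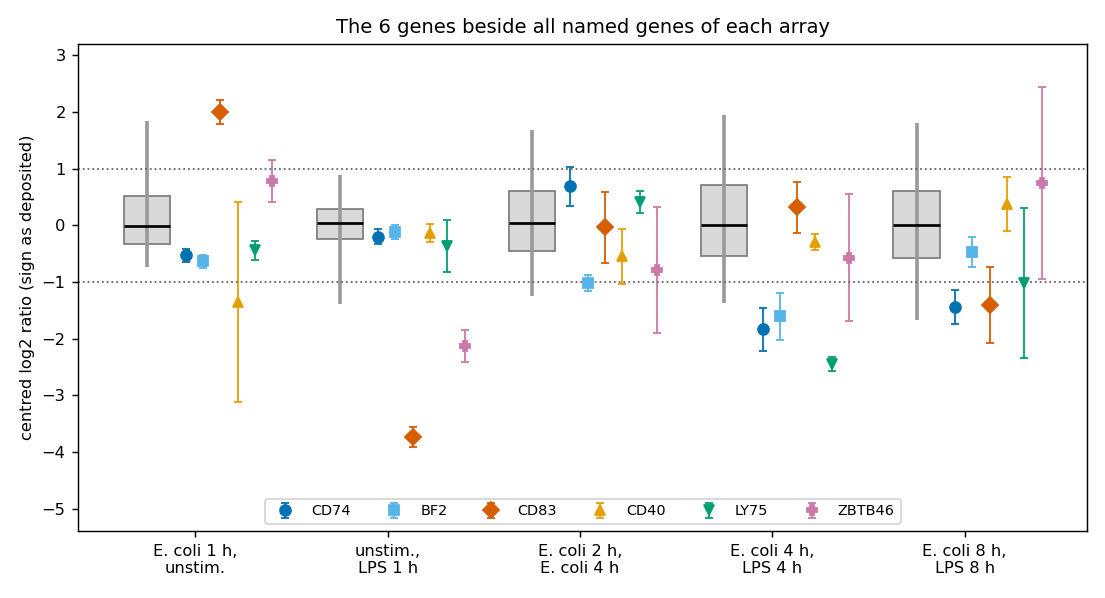
Centred log2 ratio (sign as deposited) of the 6 genes on each of the 5 arrays, as the gene mean with the SD over spots, beside all named genes (box, middle 50%; line, 5th to 95th percentile; black bar, median). Dotted lines mark 2-fold. CD83 stood above the 95th percentile on the 1 h E. coli array and below the 5th on the 1 h LPS array, and CD74, BF2 and LY75 stood below the 5th percentile on the 4 h array.

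How genes of all kinds divided between the signs depended on the scaling. Of the genes past 2-fold, 332 were positive and 34 negative on the 1 h E. coli array (224 and 82 after removal of a trend with brightness), and 85 and 166 on the 1 h LPS array (161 and 123 without centring, 37 and 150 without the dimmest spots). The split was 333 and 187 on the E. coli time array (646 and 70 without centring), 397 and 264 on the 4 h array (230 and 257 without the dimmest spots) and 333 and 287 on the 8 h array (189 and 269 without the dimmest spots). Of the 11 ratios past 2-fold of the 6 genes, none changed sign under these settings. Dim genes had higher ratios than bright ones. By intensity on the LPS 2 h array, the dimmest 10% of genes had a median ratio of 1.06 at 4 h and 0.72 at 8 h, and the brightest 10% had -0.58 and -0.38. CD74, BF2 and CD83 were among the brightest 10% of genes, while the spots of LY75 were dim.

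The presentation genes come first. CD74, the invariant chain, had its largest ratios on the late arrays. Its 3 spots read -2.15, -1.95 and -1.41 on the 4 h array, a mean of -1.84 ± 0.38 (3.57-fold), and -1.75, -1.44 and -1.13 on the 8 h array, a mean of -1.44 ± 0.31 (2.71-fold). Every spot was past 2-fold on both arrays. A lower ratio than that of CD74 was found for 44 of 2248 genes at 4 h and 157 of 2220 at 8 h. After removal of the trend with brightness the ratio was -1.09 at 4 h and still past 2-fold, but -0.95 at 8 h, which is within it.

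At the other times CD74 was within 2-fold. Its spots read -0.64, -0.53 and -0.41 on the 1 h E. coli array, a mean of -0.53 ± 0.12. With LPS at 1 h they read -0.33, -0.20 and -0.07, a mean of -0.20 ± 0.13, which was 0.09 without centring. On the E. coli time array all 3 spots were positive, at 0.96, 0.80 and 0.31, with a mean of 0.69 ± 0.34. That ratio was past 2-fold without centring, at 1.18, and after removal of the trend, at 1.08.

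BF2, the class I chain, was read by 3 clones that gave similar ratios. On the 4 h array its 9 spots ran from -2.24 through a median of -1.57 to -1.08, and the gene mean was -1.60 ± 0.41 (3.04-fold). The means of the 3 clones were -1.77, -1.53 and -1.51. All spots were past 2-fold, and 71 of 2248 genes had a lower ratio. After removal of the trend the value was -1.03.

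The spots of BF2 lay between -1.21 and -0.83 on the E. coli time array, with a mean of -1.02 ± 0.14, on the edge of 2-fold. That call ended in 5 alternatives, at -0.53 without centring, -0.67 after removal of the trend, -0.86 with the arrays scaled to 1 spread, -0.97 without clone 1 and just within 2-fold as the median of spots. BF2 and CD74 stood on opposite sides on this array, with no overlap of spots and a difference of 1.71. BF2 had -0.64 ± 0.11 on the 1 h E. coli array, with all 9 spots negative from -0.78 to -0.43. On the 8 h array it had -0.47 ± 0.26, again with 9 negative spots, from -0.87 to -0.11. With LPS at 1 h its spots ran from -0.29 to 0.05 and the mean of -0.11 ± 0.13 turned to 0.18 without centring. The chicken genome holds other class I genes of like sequence, which can hybridise to the same clones, and the values of BF2 are uncertain in that respect.

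**Figure D2:**
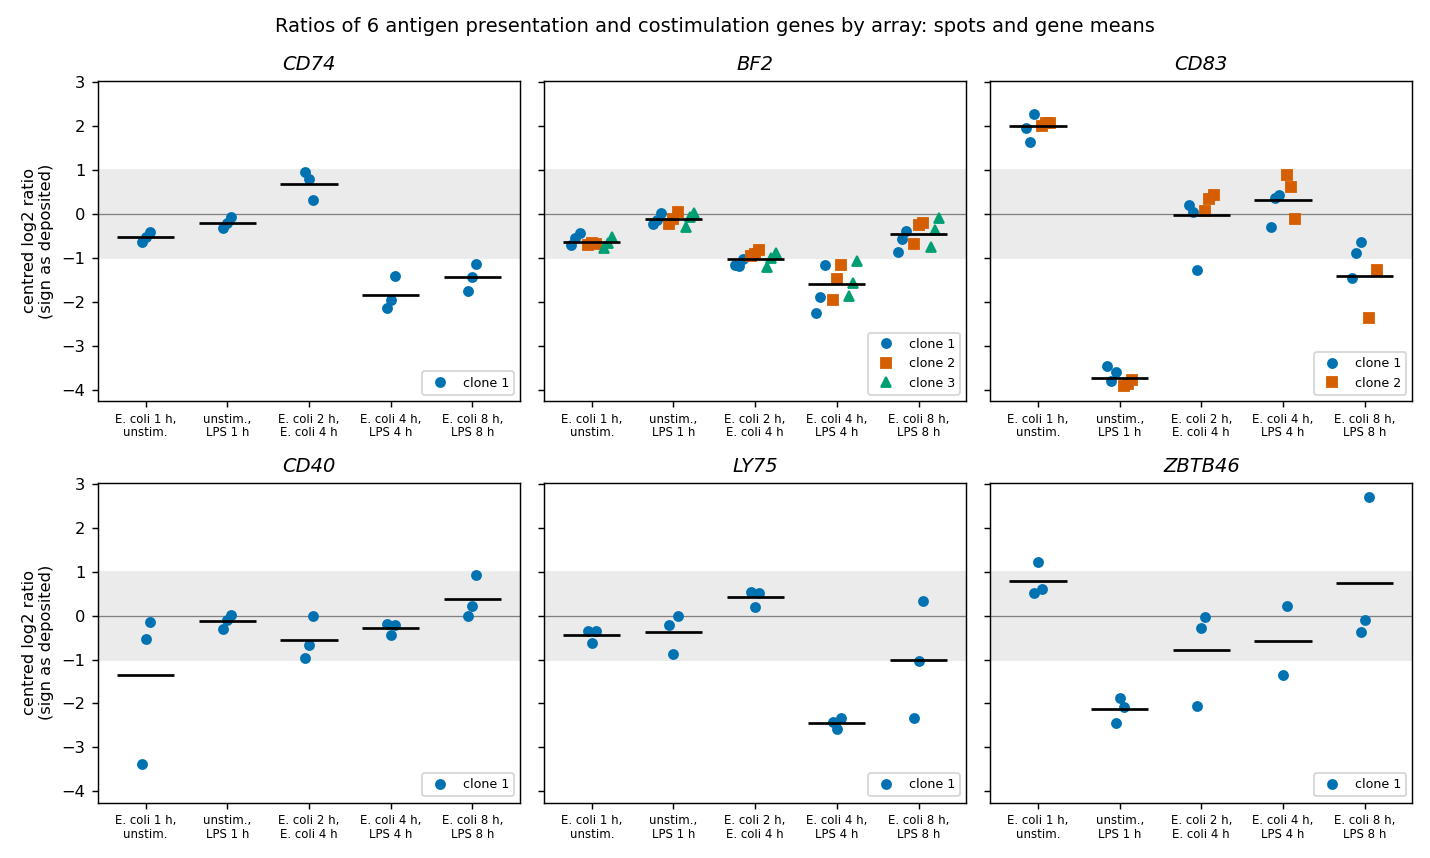
Centred log2 ratio (sign as deposited) of every spot of the 6 genes on the 5 arrays, with colour and shape for the clone, a black bar for the gene mean and a grey band for values within 2-fold. CD83 lay between 1.64 and 2.27 on the 1 h E. coli array and between -3.92 and -3.46 on the 1 h LPS array, while single spots of CD40 and ZBTB46 lay far from the others of the gene.

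CD83 had the largest ratio of the 6 genes on each array of 1 h. It is a surface protein of the immunoglobulin family that, in mammals, keeps MHC class II and costimulatory molecules on the surface of activated dendritic cells. On the 1 h E. coli array its 6 spots ran from 1.64 through a median of 2.02 to 2.27, with a mean of 2.00 ± 0.21 (3.99-fold). With LPS they ran from -3.92 through -3.79 to -3.46, with a mean of -3.74 ± 0.18 (13.3-fold), and 15 of 2251 genes had a lower ratio. The 2 clones agreed within 0.24 on both arrays, with 1.96 and 2.04 on the first and -3.62 and -3.86 on the second. Both arrays carried unstimulated RNA, in channel 2 of the first and channel 1 of the second, so a ratio of channel 1 over channel 2 would take these opposite signs if CD83 was higher after either stimulus. The titles of both arrays, however, name the control first. Were the ratios to follow the titles, opposite signs would mean opposite changes with E. coli and LPS. The direction is unsettled.

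After the first hour CD83 had no constant sign. On the E. coli time array the spots ran from -1.28 through 0.13 to 0.42, and the mean of -0.04 ± 0.63 was smaller than its SD. One spot of clone 1 was low, and clone 2 alone gave 0.28 ± 0.19. At 4 h the spots ran from -0.29 to 0.89 with a mean of 0.32 ± 0.44. That range did not overlap with the spots of CD74, BF2 or LY75 on the same array. On the 8 h array all 5 spots with a value were negative, at -1.46, -0.89 and -0.63 for clone 1 and -2.37 and -1.28 for clone 2. The gene mean, taken over the means of the clones, was -1.41 ± 0.67 (2.66-fold), and clone 1 alone gave -0.99, just within 2-fold.

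CD40, the receptor through which helper T cells bearing CD40 ligand stimulate presenting cells, was past 2-fold once, and that value rested on 1 spot. On the 1 h E. coli array the spots read -3.38, -0.52 and -0.15, a mean of -1.35 ± 1.77, and the median spot was within 2-fold. With LPS at 1 h they read -0.30, -0.11 and 0.01, a mean of -0.13 ± 0.16, which was 0.16 without centring. CD40 thus did not share the large ratios of CD83 at 1 h: the spots of the pair did not overlap on either array, and CD83 minus CD40 was 3.35 with E. coli and -3.61 with LPS. CD40 had -0.55 ± 0.48 on the E. coli time array, with spots of -0.96, -0.67 and -0.01. Its ratio was -0.29 ± 0.14 at 4 h, with spots of -0.45, -0.22 and -0.20, and 0.38 ± 0.48 at 8 h.

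LY75, the endocytic receptor, had the largest ratio of the 6 genes at 4 h. Its spots read -2.42, -2.57 and -2.33, a mean of -2.44 ± 0.12 (5.43-fold), and 12 of 2248 genes lay lower. The spots did not overlap with those of any other of the 6 genes on that array. LY75 was dim, and removal of the trend with brightness moved its value away from 0, to -3.01. On the 8 h array its spots read -2.34, -1.04 and 0.33, and the mean of -1.02 ± 1.33 was smaller than its SD. It was within 2-fold without centring, at -0.89, and with the arrays scaled to 1 spread, at -0.86.

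At 1 h LY75 was within 2-fold, with -0.44 ± 0.16 on the 1 h E. coli array and -0.37 ± 0.45 on the 1 h LPS array. All 6 spots of the pair of arrays were negative as centred, the nearest to 0 at -0.01. Without centring the spots of the 1 h LPS array were 0.08, -0.58 and 0.28, with a mean of -0.07, so their sign depended on the centring. On the E. coli time array the spots were positive, at 0.54, 0.19 and 0.52, with a mean of 0.41 ± 0.19. After removal of the trend that mean was 0.0047.

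ZBTB46, the dendritic cell factor, was past 2-fold on the 1 h LPS array alone. Its spots there read -2.44, -1.89 and -2.07, a mean of -2.13 ± 0.28 (4.38-fold), with 54 of 2251 genes lower. On the 1 h E. coli array all 3 spots were positive, at 0.52, 1.21 and 0.61, and the mean was 0.78 ± 0.37. CD83 and ZBTB46 were the pair of the 6 genes with positive spots on the 1 h E. coli array, and both were past 2-fold with negative spots on the 1 h LPS array. The spots of neither overlapped with those of CD74, BF2, CD40 or LY75 on these arrays.

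The late values of ZBTB46 were too scattered to give a sign. On the E. coli time array the spots read -2.06, -0.27 and -0.03, a mean of -0.79 ± 1.11. At 4 h 2 spots had a value, -1.36 and 0.23. On the 8 h array they read -0.37, -0.10 and 2.69, and the mean of 0.74 ± 1.69 was set by the highest of them: the median spot was negative.

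The LPS 2 h array gave the brightness of 1 RNA sample, in units that are not stated. Brightness also depends on the clone, so it is no measure of transcript level between genes. The share of the 2253 genes that were dimmer is given since ratios followed brightness, and it describes the spots alone. CD74 had spots of 10.9, 8.03 and 7.37, a mean intensity of 8.76 ± 1.87, with 99.4% of genes dimmer. CD83 had a mean intensity of 5.50 ± 5.73 (98.0% dimmer), but clone 1 read 4.84, 4.72 and 16.9 while clone 2 read 2.09, 2.40 and 2.06. BF2 had 2.74 ± 1.07 (92.1%), with clone means of 3.77, 3.02 and 1.42.

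CD40 had an intensity of 0.849 ± 0.103 and ZBTB46 one of 0.728 ± 0.0897, with 67.3% and 62.0% of genes dimmer. LY75 had spots of 0.143, 0.219 and 0.216 and a mean of 0.193 ± 0.0429, with 20.5% of genes dimmer. The median over all genes was 0.509. All 27 spots of the 6 genes were above 0.

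**Figure D3:**
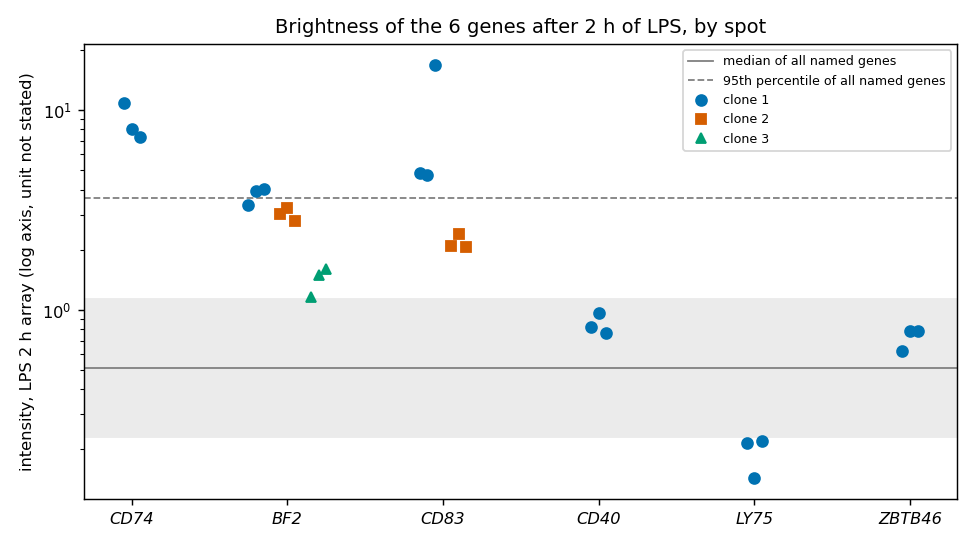
Intensity on the LPS 2 h array (log axis, unit not stated) of every spot of the 6 genes, with colour and shape for the clone. The grey band is the middle 50% of all named genes, the line their median of 0.509 and the dashed line their 95th percentile. All spots of CD74 and of clone 1 of CD83 and 2 spots of clone 1 of BF2 lay above the 95th percentile, and LY75 lay below the band.

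The partners of these genes in presentation were taken from 4 lists, of which 27 further genes were read. Of the class I list, 5 genes were read besides BF2. None of the 5 was past 2-fold at 4 h, where 29.4% of all genes were. B2M, the light chain of class I molecules, had -0.31 ± 0.50 there, TAP2, a subunit of the peptide transporter, -0.28 ± 0.53, and TAPBP, or tapasin, which loads the peptide, 0.84 ± 0.83. The median of the 5 was -0.28, against -1.60 for BF2. TAP2 had -1.07 ± 0.56 on the E. coli time array, where no other class I gene but BF2 was past 2-fold. On that array 23.1% of all genes were. On the 8 h array PDIA3, a chaperone of class I folding, had -1.10 ± 0.88.

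The class II list held 10 read genes besides CD74. At 4 h 5 of the 10 were past 2-fold, all 5 with a negative ratio, and the median of the 10 was -1.03, where 11.7% of all genes were past 2-fold and negative. The spots of the 5 were bright, with 89.6% to 97.4% of genes dimmer, and of the brightest 10% of genes 40.3% were past 2-fold on this array, with a median of -0.58. They were CTSS, the cathepsin that cuts the invariant chain, at -2.35 ± 0.30, the aspartic protease CTSD at -2.13 ± 0.51, the asparagine endopeptidase LGMN at -1.99 ± 0.51, the cathepsin CTSB at -1.84 ± 0.75 and IFI30, the thiol reductase of lysosomes, at -1.40 ± 0.24. BLB1, a class II beta chain with a near copy in the genome that its clones may also read, had -0.13 ± 1.04 over 15 spots, and DMA, a chain of the peptide exchange factor, -0.41 ± 0.34. CTSH, a further cathepsin, had -0.53 ± 1.85 and SPPL2A, a protease that cleaves the remnant of the invariant chain in mammals, 0.28 ± 0.76, both within 2-fold. The spots of BLB1 ran from -1.82 to 1.65, so its mean gives no sign.

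On the 8 h array 4 of the 10 class II genes were past 2-fold on the negative side, against 12.9% of all genes, and 2 on the positive, against 15%. The negative ones were CTSD at -1.73 ± 0.28, CTSS at -1.66 ± 0.18, IFI30 at -1.18 ± 0.27 and CTSB at -1.04 ± 0.22. The spots of these 4 were bright, with 89.6% to 96.6% of genes dimmer. Of the brightest 10% of genes 30.1% were past 2-fold in either direction on this array, with a median of -0.38. The positive ones were DMA at 2.04 ± 3.82, an SD larger than the ratio, and SPPL2A at 1.12 on 1 spot. BLB1 had -0.10 ± 0.72. On the E. coli time array CST3, an inhibitor of cathepsins, had 1.19 ± 0.28 on the side of CD74, SPPL2A had 1.88 ± 1.87 and DMA -2.03 ± 2.60. After 1 h CTSS had -1.01 ± 0.12 and SPPL2A 1.15 ± 0.18 with E. coli. On the 1 h LPS array none of the 10 was past 2-fold, where 11.2% of all genes were.

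**Figure D4:**
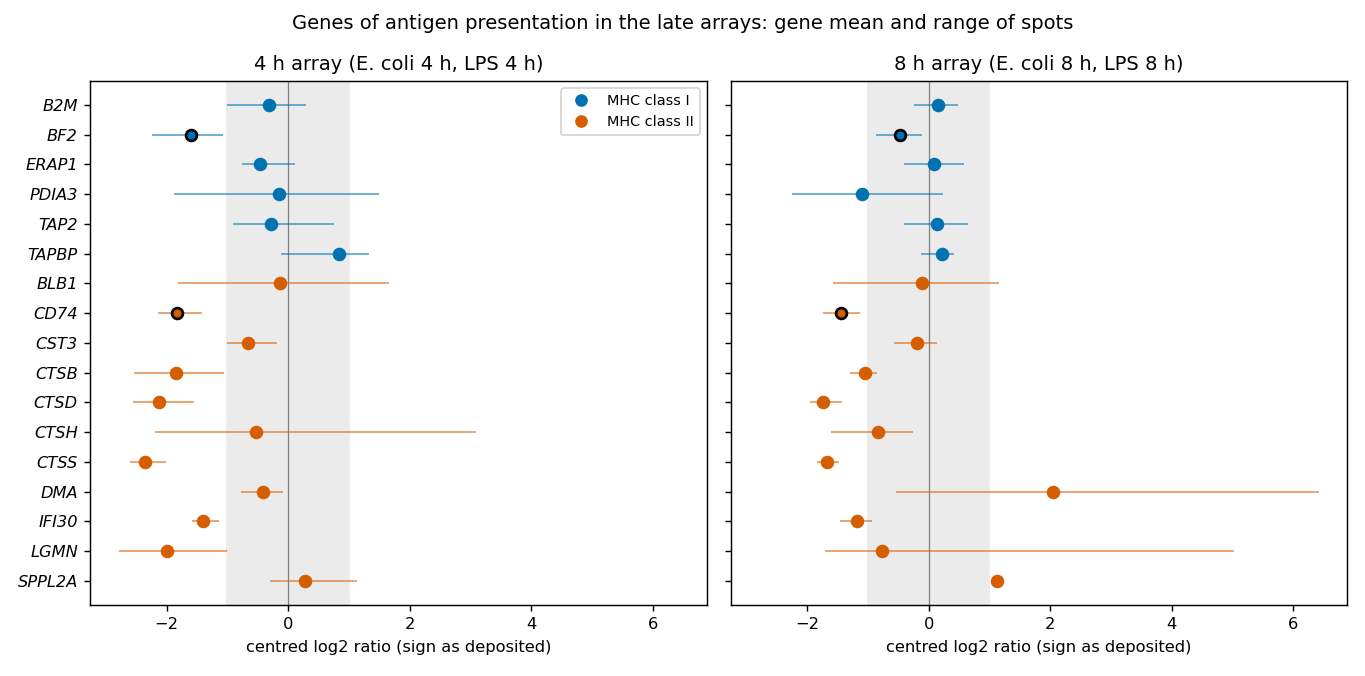
Centred log2 ratio (sign as deposited) of the 17 read genes of MHC class I (blue) and class II (orange) presentation on the 4 h and 8 h arrays, as the gene mean (dot, ringed in black for BF2 and CD74) with the range of its spots (line). The grey band marks values within 2-fold. On the 4 h array the mean of CD74 was -1.84 and that of BF2 -1.60, below the means of the other class I genes, though the spots of PDIA3 spanned those of BF2 in part.

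Of the costimulation list 6 genes were read besides CD83 and CD40, and 4 of these are best known from T cells. CD274, or PD-L1, an inhibitory ligand for T cells, had -1.57 ± 0.92 on the 1 h LPS array and 1.34 ± 0.77 on the E. coli time array. On the 4 h array the T cell genes CD28 at 2.10 ± 2.49, CD40LG at 1.96 ± 1.81, CTLA4 at 1.52 ± 1.12 and ICOS at 1.37 ± 1.06 were past 2-fold and positive, each with all its spots above 0. All were at or below the median brightness, at 48.6%, 2.93%, 13.4% and 23.6% dimmer genes. Of all genes 17.7% were past 2-fold and positive on the 4 h array. Among genes about as dim as CD40LG, CTLA4 and ICOS, the median ratios there were 1.06, 0.78 and 0.38. Of those genes 56.6%, 40.9% and 30.2% were past 2-fold in either direction. For genes about as bright as CD28 the median was 0.03, and 16.4% were past 2-fold. The part of brightness in the ratios of these T cell genes was not tested. On the other arrays CTLA4 had 1.27 ± 0.77 at E. coli 1 h and 1.85 ± 0.85 at 8 h, CD40LG 2.68 ± 3.04 and CD276, a ligand of the B7 family, 1.05 ± 2.43 at 8 h, and ICOS -2.13 ± 1.97 on the E. coli time array.

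Of the list of dendritic cell receptors and factors 6 genes were read besides LY75 and ZBTB46. ID2, a repressor needed for dendritic cells in mice, was the one past 2-fold beside ZBTB46 on the 1 h LPS array, at -1.09 ± 0.12. IRF8, an interferon regulatory factor of the same lineage, had 1.34 ± 0.31 on the 1 h E. coli array, 1.46 ± 1.38 on the E. coli time array and 1.98 ± 0.74 at 8 h. BATF3, a partner of IRF8 in mice, was within 2-fold on all 5 arrays, from -0.68 to -0.15, as was IRF4, from -0.64 to -0.30. SPI1, or PU.1, had -1.05 ± 0.46 at 8 h. At 4 h none of the 6 was past 2-fold, where 29.4% of all genes were, and LY75 had -2.44.

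Markers of the labelled cell type were read, and some of other cells too. Of 12 macrophage markers 9 were read, with intensities at LPS 2 h between 0.202 and 4.32 and a median of 88.5% dimmer genes. Of these 9, 7 were negative and 1 positive past 2-fold at 4 h, and 6 were negative at 8 h, against 11.7% and 12.9% of all genes on the negative side. The medians of the 9 were -1.12 and -1.63, beside the negative ratios of CD74 and of CTSS, itself a marker on this list. Of the brightest 10% of genes, 40.3% at 4 h and 30.1% at 8 h were past 2-fold in either direction, with medians of -0.58 and -0.38. The markers C1QA, C1QC, MARCO, TREM2 and HPGDS lay below that 10%, with 21.8% to 88.5% of genes dimmer, so these shares do not describe them. On the 1 h E. coli array 1 of the 9 was past 2-fold and negative, against 1.51% of all genes. It was CTSS at -1.01, on the edge of 2-fold and already given with the class II list. On the 1 h LPS array 2 were past 2-fold and positive, against 3.78%. The T cell list had 2 read genes, and CD3D, a chain of the T cell receptor complex, had bright spots (5.40, with 98.0% of genes dimmer). CD3D had -2.70 ± 0.75 at 4 h and -4.01 ± 0.76 at 8 h, while CD28 had 2.10 ± 2.49 and -0.49. The B cell and thrombocyte lists had 1 read gene each, and the erythroid and heterophil lists 2 each, with medians of 0.32, -0.61, 1.57 and -0.38 at 4 h and -0.16, 0.28, -0.57 and 0.15 at 8 h. No gene of these 5 lists was past 2-fold on either array of 1 h, where 16.3% (E. coli) and 11.2% (LPS) of all genes were. Of the dendritic cell list 5 genes were read, 3 of them among the 6. On the 1 h LPS array CD83, ZBTB46 and ID2 were past 2-fold and negative. CD83 and ZBTB46 are among the 6 genes and were reported above, so they are not counted again. Of the other 2 read genes of this list 1 was past 2-fold and negative, ID2 at -1.09 ± 0.12, against 7.37% of all genes. None of the markers was at or below 0 in intensity, but this does not show which cells were present: of all 2253 genes 12 were below 0. Their part in the ratios of the 6 genes was not tested.

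The genes whose ratios were most like those of each of the 6 were found by Euclidean distance over the 5 arrays, among 2211 other genes with a value on all 5. For CD74 these were TUBB6 at a distance of 0.39, PRDX1 at 0.52 and TMEM123 at 0.55, where the median gene lay at 2.85. For LY75 they were LGMN at 0.54, TMEM123 at 0.65 and CMTM3 at 0.65. Of all genes 5 were nearer to LY75 than CD74 was, at a distance of 0.81, and 18 were nearer to CD74 than LY75 was. For BF2 they were ABTB1 at 0.45, ARL6IP5 at 0.59 and PLS3 at 0.61.

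For CD83 the nearest were TLR15, a toll-like receptor of birds and reptiles, at 1.23, LOC420486 at 1.36 and ACOD1, the enzyme that makes itaconate, at 1.65, where the median gene lay at 4.73. For ZBTB46 they were SDC4 at 0.67, RIPK3 at 0.72 and DTX2 at 0.77, and for CD40 RPL7L1 at 0.51, RASSF5 at 0.59 and TNFSF13B at 0.68. The distances of ZBTB46, CD40 and LY75 include the arrays on which their spots were scattered.

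Ratios also differed by spot number. The 3 spots of a clone lie in 3 stretches of the spot numbers, and the median of all spots, as deposited, went from -0.39 in stretch 1 to -0.20 in stretch 2 and 0.19 in stretch 3 on the 4 h array, and from -0.23 through 0.11 to 0.51 on the 8 h array. CD74 and BF2 followed the same order on both: at 4 h BF2 had -2.03, -1.64 and -1.14 and at 8 h -0.76, -0.40 and -0.23. With each stretch centred on its own median, a setting chosen after these values were seen, the SD over spots of CD74 fell from 0.38 to 0.0864 at 4 h and from 0.31 to 0.0672 at 8 h, and that of BF2 at 4 h from 0.41 to 0.20. For LY75 at 4 h it rose from 0.12 to 0.25. The SD was smaller with this centring for 21 of the 30 pairs of a gene and an array, and no gene of the 6 crossed 2-fold.

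**Figure D5:**
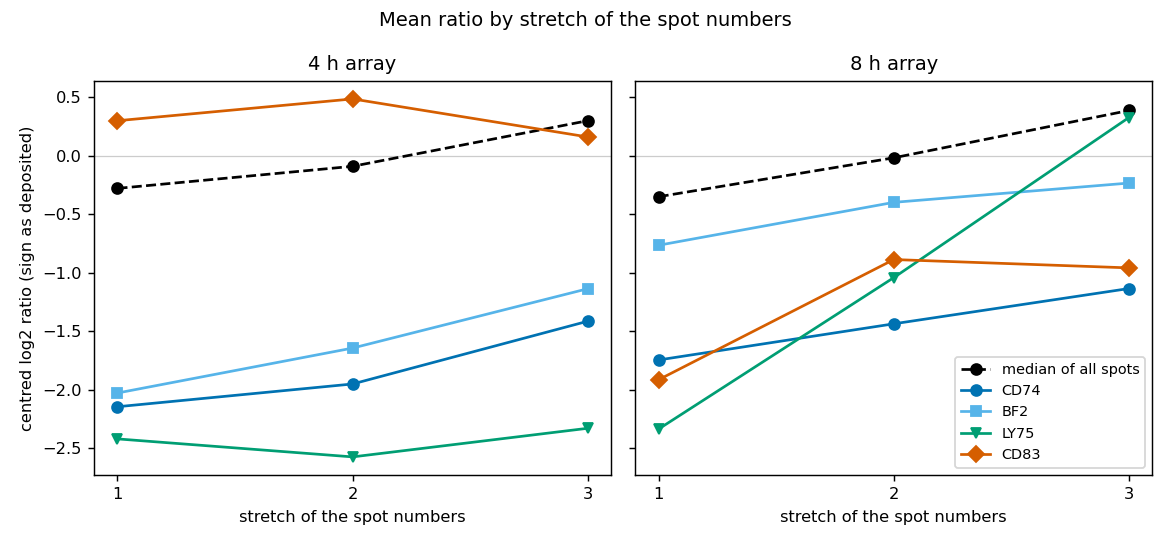
Mean centred log2 ratio (sign as deposited) of CD74, BF2, LY75 and CD83 in each of the 3 stretches of the spot numbers on the 4 h and 8 h arrays, with the median of all spots (dashed). CD74 and BF2 were lowest in stretch 1 and highest in stretch 3 on both arrays, as was the median, while LY75 and CD83 at 4 h were not.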

How the data were processed

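Chicken macrophage RNA was measured on 6 spotted arrays, 1 per group, and groups were taken from the labels. The deposited values are log2 ratios made by the authors for 5 arrays (base 2 assumed) and, for LPS 2 h, a deposited intensity on a linear scale. No source used here states the numerator, dyes, background correction or normalization, so scale, centring and direction as deposited remain unknown. Deposited medians were 0.07 (E. coli 1 h), 0.29 (LPS 1 h), 0.49 (E. coli 2 h and E. coli 4 h), -0.11 (4 h) and 0.12 (8 h). In its title the 1 h E. coli array has the control first, unlike its channels.

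A probe table of 2007 named 9066 spots with 1 gene and 3 with several, which were not used, and 5649 spots were unnamed. Symbols were updated by gene identifier through RefSeq (GRCg7b, names only), which matched 2228 of 2255 identifiers. Spots of a clone agreed in intensity (Spearman's rho 0.898 to 0.922 over 3022 clones). Ratios were centred on the array median, then spots of each clone and clones of each gene were averaged. No test was run, since each group had 1 array. The trend with brightness was removed by lowess (fraction 0.3) on log2 LPS 2 h intensity. Other alternatives were no centring, arrays scaled to 1 spread, medians of spots, leaving out the dimmest 25% of spots, leaving out a clone, and 1.5-fold and 3-fold thresholds.

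Named were the 6 genes, every gene of the 4 lists past 2-fold on an array, and the 3 nearest genes by distance among those with at least 3 spots. B2M, TAPBP, BLB1, BATF3, IRF4, some within-2-fold values and the markers were added after their values were seen. Members and lists were chosen with earlier results of these data known. The steps were tested on simulated data with normal noise alone. That noise held no trend with brightness, no shift between stretches and no outlying spots, so the test does not cover these. Software was pandas 2.3.3, numpy 2.4.6, statsmodels 0.14.6 and matplotlib 3.10.9 under Python 3.11.15. Sequences of the clones were not used here.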

Additional observations from a re-analysis of the deposited data

How the results depend on the processing

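Over the 6 genes, 5 arrays and all alternatives, 170 of 205 recomputed ratios moved by less than the SD over spots, 35 moved by more, and no ratio past 2-fold changed sign. The moved ratios were 16 of 30 after removal of the trend with brightness, 10 of 30 with the arrays scaled to 1 spread and 9 of 30 without centring. With medians of spots none of the 30 moved, since a median lies within 1 SD of the mean. Leaving out the dimmest spots changed the values of LY75 alone, and none of the 30 moved. The total of 170 is therefore no measure of stability. The number of the 6 genes past 2-fold went from 2 to 1 on the 1 h E. coli array with medians of spots, and from 1 to 0 on the E. coli time array with medians of spots or with scaling. At 8 h it went from 3 to 2 without centring, after removal of the trend and with scaling. On the E. coli time array, without centring or after removal of the trend, the count of 1 was CD74 in place of BF2. A 1.5-fold threshold gave 4 on the 1 h E. coli array and 3 on the E. coli time array, and a 3-fold threshold gave 1 and 0 on these arrays and 0 at 8 h. Of the 27 other list genes, 4 were past 2-fold on the 1 h E. coli array but 2 after removal of the trend. On the 1 h LPS array 2 were, but 1 after removal and 6 with scaling. At 8 h 12 were, but 9 without centring and 6 after removal or with scaling. Without these changes the shares of all genes past 2-fold on the same arrays were 16.3%, 11.2% and 27.9%. Over all genes, scaling gave 506 in place of 251 on the 1 h LPS array and 277 in place of 661 at 4 h, and leaving out the dimmest spots gave 188 in place of 366 on the 1 h E. coli array, where fewer genes were then read (1894). The cause of the other changes was not tested. No paired analysis was possible because each group had 1 array. Brightness above background was not given.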

Other observations

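CD74 and LY75, both past 2-fold at 4 h, lay near each other over the 5 arrays, as centred. On the 1 h E. coli array CD74 had -0.53 and LY75 -0.44, on the 1 h LPS array -0.20 and -0.37, on the E. coli time array 0.69 and 0.41, and on the 8 h array -1.44 ± 0.31 and -1.02 ± 1.33. At 4 h they had -1.84 and -2.44. After removal of the trend with brightness they lay further apart on all 5 arrays, most of all at 4 h, with -1.09 and -3.01. The values were then -0.33 and -0.84 on the 1 h E. coli array and 0.02 and -0.55 on the 1 h LPS array. On the E. coli time array they were 1.08 and 0.0047, and at 8 h -0.95 and -1.42. The nearness of CD74 and LY75 thus depended on the trend with brightness being left in. Centring shifts all genes of an array alike: without it the values at 4 h were -1.95 and -2.55. LGMN, the lysosomal protease nearest to LY75, had -0.54 on the 1 h E. coli array and -0.25 on the 1 h LPS array. It had 0.47 on the E. coli time array, -1.99 at 4 h and -0.77 ± 1.90 at 8 h. Its 12 spots at 8 h ran from -1.71 to 5.03, so its mean there was scattered, as was that of LY75. The distance between CD74 and LY75 was noticed in these data and was not tested.

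BF2 and its light chain B2M had -1.60 ± 0.41 over 9 spots and -0.31 ± 0.50 over 6 spots on the 4 h array. CD3D, a T cell gene with 98.0% of genes dimmer at LPS 2 h, had 0.09 on the 1 h E. coli array, 0.55 on the 1 h LPS array, -0.21 on the E. coli time array, -2.70 at 4 h and -4.01 at 8 h. Spot 3 of clone 1 of CD83 had an intensity of 16.9 at LPS 2 h against 4.84 and 4.72 for the other spots of the clone, and a ratio of -1.28 on the E. coli time array against 0.20 and 0.03.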
